A study of Mus musculus with 6 samples.

Results

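The cholesterol synthesis, uptake and export genes described here are 29 mouse genes, followed across 8 cell classes of the adult preoptic region, the part of the hypothalamus that governs body temperature, sleep and reproductive behaviour. The genes were taken as a list of symbols. All 29 were found, each as 1 row, among 27998 genes in the deposited table. They comprise 19 enzymes of cholesterol synthesis, 10 of them acting up to lanosterol, the first sterol of the pathway, and 9 acting after it. Another 5 sense sterols or control the pathway (Srebf1, Srebf2, Scap, Insig1 and Insig2), and 5 carry, export or turn over cholesterol (Stard4, Abca1, Abcg1, Apoe and Cyp46a1).

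Cells had been released from freshly dissected tissue with protease, sorted to enrich live cells and sequenced by the droplet-based 10x Chromium method, which counts molecules by unique molecular identifiers (UMIs). Female mice gave 3 libraries and male mice gave 3; every library pooled 3 animals, which were 60 to 70 days old and had been singly housed for 3 days. The labels name no strain, allele, drug or behaviour, so sex is the only labelled difference between the groups. The animals within a pool cannot be separated, so n counts pools. P-values between the sexes measure the spread between pools. Those between classes measure the spread that remains once differences between libraries are taken out.

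Brain cholesterol is made locally, because lipoproteins of the blood do not cross the blood-brain barrier. Synthesis runs from acetyl-CoA through mevalonate and squalene to lanosterol, and from there by a series of demethylations, reductions and isomerisations to cholesterol. The factor encoded by Srebf2 switches on most of these enzymes when sterols are low, Scap escorts it to the Golgi, and the Insig proteins hold both in the endoplasmic reticulum when sterols are plentiful. Oligodendrocytes use large amounts of cholesterol for myelin, astrocytes secrete it on apolipoprotein E, and neurons hydroxylate the excess through Cyp46a1.

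Most promoter windows of the synthesis enzymes hold a short motif, shown here for 5 enzymes that were higher in newly formed oligodendrocytes than in precursors and for Insig2, which was not called. RefSeq windows of build GRCm38.p6, from 250 bases before to 50 bases after a gene's start, were held for 24 of the 29 genes. Abcg1, Fdft1, Fdps, Sqle and Stard4 had none. The letters CCAAT, the core of the box bound by the factor NF-Y, were searched on both strands, as were the letters TCACNCCAC of a sterol response element. CCAAT was present in a window of 15 of the 16 synthesis enzymes with one, against 41.1% of 27025 genes. Among the control genes it was present in 4 of 5. TCACNCCAC was found in 1 of the 16 enzymes, Hmgcs1, against 1.44% of all genes. The lines below run 5′ to 3′ on the gene's strand, with the motif in capitals (ATTGG is CCAAT read on the other strand).
Hmgcs1, chr13:119690184-119690252, plus strand, TCACNCCAC: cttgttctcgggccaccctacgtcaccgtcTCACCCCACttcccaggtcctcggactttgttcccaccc
Hmgcs1, chr13:119690276-119690340, plus strand, CCAAT: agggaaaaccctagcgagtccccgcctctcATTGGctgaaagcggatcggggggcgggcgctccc
Mvk, chr5:114444172-114444236, plus strand, CCAAT: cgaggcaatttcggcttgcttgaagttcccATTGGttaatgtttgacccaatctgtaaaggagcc
Mvd, chr8:122443448-122443512, minus strand, CCAAT: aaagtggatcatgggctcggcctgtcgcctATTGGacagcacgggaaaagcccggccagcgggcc
Hsd17b7, chr1:169969244-169969308, minus strand, CCAAT: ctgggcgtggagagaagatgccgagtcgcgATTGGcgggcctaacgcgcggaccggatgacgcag
Ebp, chrX:8193533-8193597, minus strand, CCAAT: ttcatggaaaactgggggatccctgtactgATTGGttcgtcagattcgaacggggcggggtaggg
Insig2, chr1:121332601-121332665, minus strand, CCAAT: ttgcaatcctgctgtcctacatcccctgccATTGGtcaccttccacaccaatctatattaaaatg
Several of these windows hold further matches, and the motifs searched did not overlap in Hmgcs1. The CCAAT match shown starts 45 bases before the start of Hmgcs1, 67 before Mvk, 60 before Mvd, 73 before Hsd17b7, 55 before Ebp and 46 before Insig2, and the TCACNCCAC match starts 137 bases before Hmgcs1. Insig2 carries CCAAT too and, as described below, has a different profile over the classes. A match describes these letters only.

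Of 31299 barcodes, 30824 had at least 500 genes and at most 20% mitochondrial UMIs. Marker UMIs placed 28917 of them in 8 classes: 1550 oligodendrocyte precursors, 405 newly formed and 6676 mature oligodendrocytes, 672 astrocytes, 18055 neurons, 766 microglia, 383 endothelial cells and 410 mural cells (pericytes and smooth muscle). Marker genes not used for placing the cells were highest in their own class, except Mfge8 of the 5 astrocyte markers and Fam107b of the 5 for newly formed oligodendrocytes, both higher in mural cells. Library totals ran from 1278429 UMIs (female replicate 3, 451 barcodes) to 81162330 (female replicate 2), and female replicate 3 stands apart by its size, with 5 newly formed oligodendrocytes, 4 mural cells and 12 microglia. Sums of fewer than 10 cells were left out, so newly formed oligodendrocytes and mural cells have 5 libraries. Libraries shared 489 pairs of barcode sequences (963 barcodes, 3.08%). Fewer cells with a transcript and fewer transcripts per cell cannot be told apart in these sums.

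Summed levels are UMIs per 10000 UMIs of the class in a library. Single genes are given as levels in CPM (UMIs of a gene scaled to a common total) after TMM scaling, a factor per sum that lines up the bulk of the genes. The choice moves the median of all genes. With plain totals the median gene was lower by 0.67 on the log2 scale in mature oligodendrocytes than in precursors and in neurons (-0.67 in both), and with TMM the medians were 0.03 and -0.01. The corresponding medians were -0.43 and 0.12 against newly formed oligodendrocytes, 0.36 and -0.02 for astrocytes against mature oligodendrocytes, -0.40 and -0.11 for astrocytes against neurons, -0.73 and -0.09 for microglia against astrocytes, -0.23 and -0.09 for newly formed oligodendrocytes against precursors, and -0.13 and -0.09 for endothelial cells against astrocytes. A gene is called when its edgeR quasi-likelihood test, with library as a block and 10504 genes tested, gave an adjusted p under 0.05. Of the 29 genes, 28 passed the expression filter of that fit. Tm7sf2, a sterol reductase, did not.

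Together the 19 enzymes took the smallest share of transcripts in microglia, and with plain totals the largest in newly formed oligodendrocytes. Their summed level was 27.9 ± 3.75 UMIs per 10000 (SD, n = 5) in newly formed oligodendrocytes, with 30.4, 21.6, 27.2, 29.9 and 30.2 in female replicates 1 and 2 and male replicates 1, 2 and 3. Precursors held 21.7 ± 3.28 (n = 6, from 17.4 to 25.2), astrocytes 19.5 ± 1.00 (18.5 to 20.9) and mature oligodendrocytes 19.0 ± 2.24 (15.4 to 21.9). These last 3 classes overlapped. Neurons held 10.9 ± 0.570 (10.3 to 11.7), below every library of the glial classes just named. Mural cells held 7.52 ± 1.41 (n = 5), endothelial cells 5.53 ± 0.809 and microglia 2.57 ± 0.842 (1.09 to 3.37). On the TMM scale used for single genes below, mature oligodendrocytes came to 25.2 ± 3.74 and newly formed ones to 24.9 ± 3.24, with overlap, so the first place depends on the scaling. Astrocytes then came to 19.0 ± 3.09, precursors to 17.5 ± 3.19, neurons to 9.04 ± 0.879 and microglia to 3.86 ± 1.73. In precursors the enzymes up to lanosterol summed to 13.3 and the later ones to 8.47 UMIs per 10000, in neurons to 7.13 and 3.81, and in mural cells to 5.26 and 2.25, whereas the sums were 9.67 and 9.87 in astrocytes, 2.75 and 2.78 in endothelial cells and 1.26 and 1.31 in microglia.

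**Figure D1:**
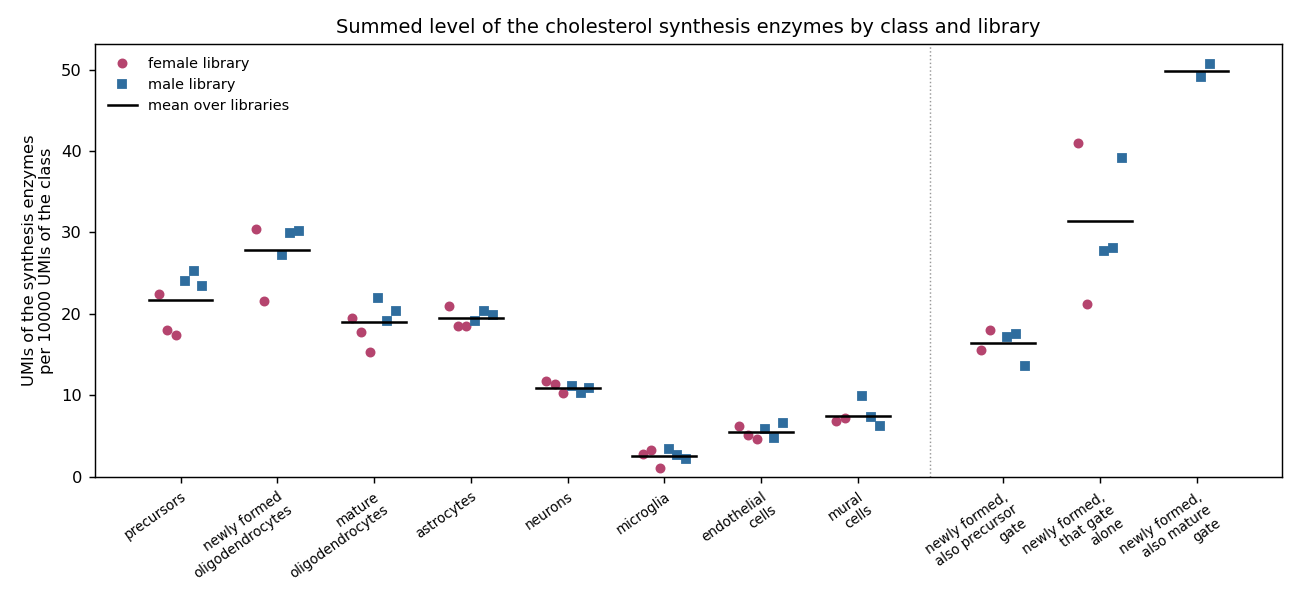
Summed UMIs of the 19 synthesis enzymes per 10000 UMIs of the class (vertical axis), by cell class; each point is 1 library (circles female, squares male) and each bar the mean over libraries. On these plain totals newly formed oligodendrocytes have the highest mean of the 8 classes, 27.9. Right of the dotted line their 3 gate subsets average 16.4, 31.4 and 49.9, the last from 2 male libraries alone.

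The genes ranged without a clear break from profiles close to the mean of the pathway to profiles unlike it. Over the 8 class means, Pearson's r of a gene with the mean profile of the other synthesis enzymes was 0.97 for Hmgcs1 and Lss, 0.96 for Fdps and Dhcr7, 0.94 for Idi1, Cyp51, Msmo1 and Hsd17b7, and 0.95 for the control gene Insig1. Between the extremes lay Mvk (0.85), Scap (0.78), Srebf2 (0.68), Srebf1 (0.63), Tm7sf2 (0.62), Mvd (0.60), Cyp46a1 (0.44) and Apoe (0.37). It was 0.27 for Pmvk, 0.15 for Ebp and -0.33 for Lbr among the enzymes, and -0.30 for Insig2, 0.04 for Abca1, 0.12 for Stard4 and 0.20 for Abcg1 among the rest. These are descriptions over 8 points that come from the same libraries. By mean level after TMM scaling, Acat2, Mvk, Mvd, Idi1, Fdps, Lss and Hsd17b7 peaked in newly formed oligodendrocytes. Hmgcs1, Cyp51, Dhcr7, Sc5d, Ebp, Insig1, Scap and Abcg1 peaked in mature ones, and Srebf1, Srebf2, Msmo1, Nsdhl, Tm7sf2, Fdft1, Abca1 and Apoe in astrocytes. These places depend on the scaling: with plain totals Hmgcs1, Cyp51, Dhcr7 and Scap were lower in mature than in newly formed oligodendrocytes.

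**Figure D2:**
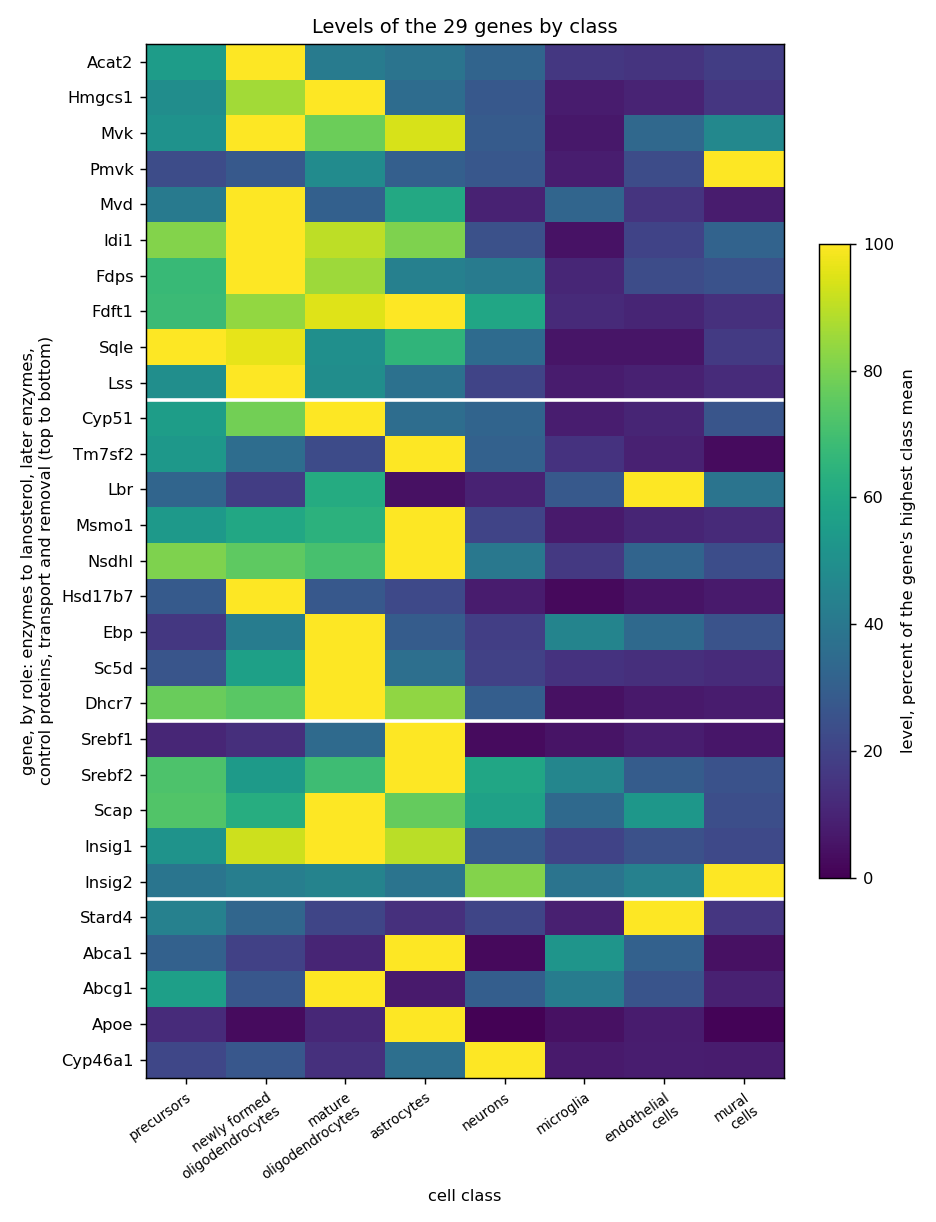
Mean TMM-scaled level of each of the 29 genes (rows, grouped by role) in the 8 classes (columns), as a percentage of the gene's highest class mean (colour). Most enzymes are highest in the 4 left columns, while Lbr and Stard4 peak in endothelial cells, Pmvk and Insig2 in mural cells and Cyp46a1 in neurons.

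Newly formed oligodendrocytes had higher levels of much of the pathway than precursors. Of 28 genes tested, 11 were called higher and 4 lower, where 40.8% of all genes tested were called (17.3% higher and 23.4% lower). All 6 called enzymes up to lanosterol were higher (Mvd, Mvk, Acat2, Lss, Hmgcs1 and Fdps), as were 4 of the 8 later enzymes tested (Hsd17b7, Ebp, Sc5d and Cyp51), with Insig1. With plain totals the split was 10 higher and 7 lower. The median log2 difference of the 28 was 0.24, beside -0.09 for all genes. Cyp51, the lanosterol demethylase, lost its call with plain totals (0.26, adjusted p = 0.0817, against 0.41 with TMM).

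Hsd17b7, a sterol ketoreductase, had the largest difference upward. Its levels in precursors had a lowest value of 0 (female replicate 3), a median of 36.1 and a highest of 44.2 CPM, and in newly formed oligodendrocytes they were 152, 49.8, 140, 114 and 90.6. The groups did not overlap, and the log2 difference was 1.5 ± 0.18 (SE; adjusted p = 1.78e-10). Ebp, the sterol isomerase, had levels from 12.8 to 31.2 (median 20.7) in precursors and of 82.0, 49.8, 50.8, 57.3 and 31.7 in newly formed oligodendrocytes, a log2 difference of 1.38 ± 0.17 (adjusted p = 4.97e-10). Male replicate 3 was the highest precursor library and the lowest newly formed one, and the groups just failed to overlap. Mvd, which makes isopentenyl diphosphate, was at 19.1 to 61.9 (median 41.1) and then at 129, 82.9, 94.0, 102 and 118, with a log2 difference of 1.11 ± 0.15 (adjusted p = 7.10e-09).

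The genes called lower in newly formed oligodendrocytes than in precursors were Apoe, Abcg1, Abca1 and Lbr. Apoe fell most: precursors had 2780 to 3678 CPM (median 3209), and newly formed oligodendrocytes 745, 1084, 754, 546 and 575, a log2 difference of -2.18 ± 0.22 (adjusted p = 2.78e-13). No library of one class reached the other. Apoe stood at 12.2% of the astrocyte mean in precursors and 2.83% in newly formed oligodendrocytes. The astrocyte markers Slc1a2, Cldn10, Mfge8, Plpp3 and Fgfr3 stood at 4.79% to 13.1% and at 0.656% to 8.66% of theirs. Apoe thus lay within the range of those markers in both classes, and how much of it is RNA from other cells was not tested. Abcg1, a transporter that passes cholesterol to lipoproteins, was at 16.5 to 63.8 (median 38.6) and then at 19.5, 31.8, 20.3, 14.3 and 4.53 (-0.85 ± 0.24, adjusted p = 0.00341). Abca1, which loads cholesterol onto lipid-poor apolipoproteins, was at 20.2 to 40.4 (median 29.8) and then at 15.6, 31.8, 19.1, 12.3 and 18.1 (-0.77 ± 0.24, adjusted p = 0.00676). For both transporters the classes overlapped, and without male replicate 2 both calls were lost (adjusted p = 0.0855 and 0.112).

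From newly formed to mature oligodendrocytes, some of these genes fell and others rose. Of 28 tested, 11 were called higher and 8 lower, where 50.4% of all genes were called (29.1% higher and 21.3% lower). Calls upward depended on the scaling: 8 higher and 9 lower with the size factors of DESeq2, and 6 and 17 with plain totals. The 8 lower genes and 6 of the 11 higher ones were called the same way under all 3 scalings. The median log2 difference of the 28 was 0.17, beside 0.12 for all genes.

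Mvd, Hsd17b7 and Acat2 had the largest differences downward, and all kept their call under the 3 scalings. Mvd was at 28.8 to 35.2 (median 32.5) CPM in mature oligodendrocytes, below every newly formed library, a log2 difference of -1.66 ± 0.14 (adjusted p = 1.90e-16). Hsd17b7 was at 8.06 to 41.9 (median 32.1), again without overlap (-1.65 ± 0.16, adjusted p = 5.37e-14). Acat2, a thiolase that joins acetyl-CoA units at the head of the pathway, was at 164, 117, 160, 176 and 199 in newly formed and at 43.0 to 87.2 (median 71.0) in mature oligodendrocytes (-1.18 ± 0.12, adjusted p = 1.39e-13).

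Apoe, Abcg1 and Lbr, all called lower in newly formed oligodendrocytes than in precursors, had the largest differences upward. Apoe returned to 1985 to 3518 (median 3075) CPM in mature oligodendrocytes, a log2 difference of 2.07 ± 0.22 (adjusted p = 9.14e-13). The median lay within the precursor range and the lowest library below it. Apoe in mature oligodendrocytes stood at 11.2% of the astrocyte mean, beside 0.636% to 5.46% for the same astrocyte markers. From precursors, mature oligodendrocytes differed by a log2 difference of -0.11 (adjusted p = 0.632) with TMM and -0.86 (adjusted p = 8.38e-06) with plain totals. Abcg1 was at 53.7 to 78.7 (median 66.8), above every newly formed library (1.83 ± 0.20, adjusted p = 3.93e-12). Lbr, a sterol reductase that is also a receptor of the nuclear lamina, was at 7.81, 20.7, 26.7, 22.5 and 13.6 in newly formed and 50.9 to 74.4 (median 61.3) in mature oligodendrocytes (1.498 ± 0.19, adjusted p = 5.56e-10). Hmgcs1, which makes the precursor of mevalonate, is an example of a direction that turned: its log2 difference was 0.32 with TMM and -0.27 with plain totals (adjusted p = 0.0319).

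**Figure D3:**
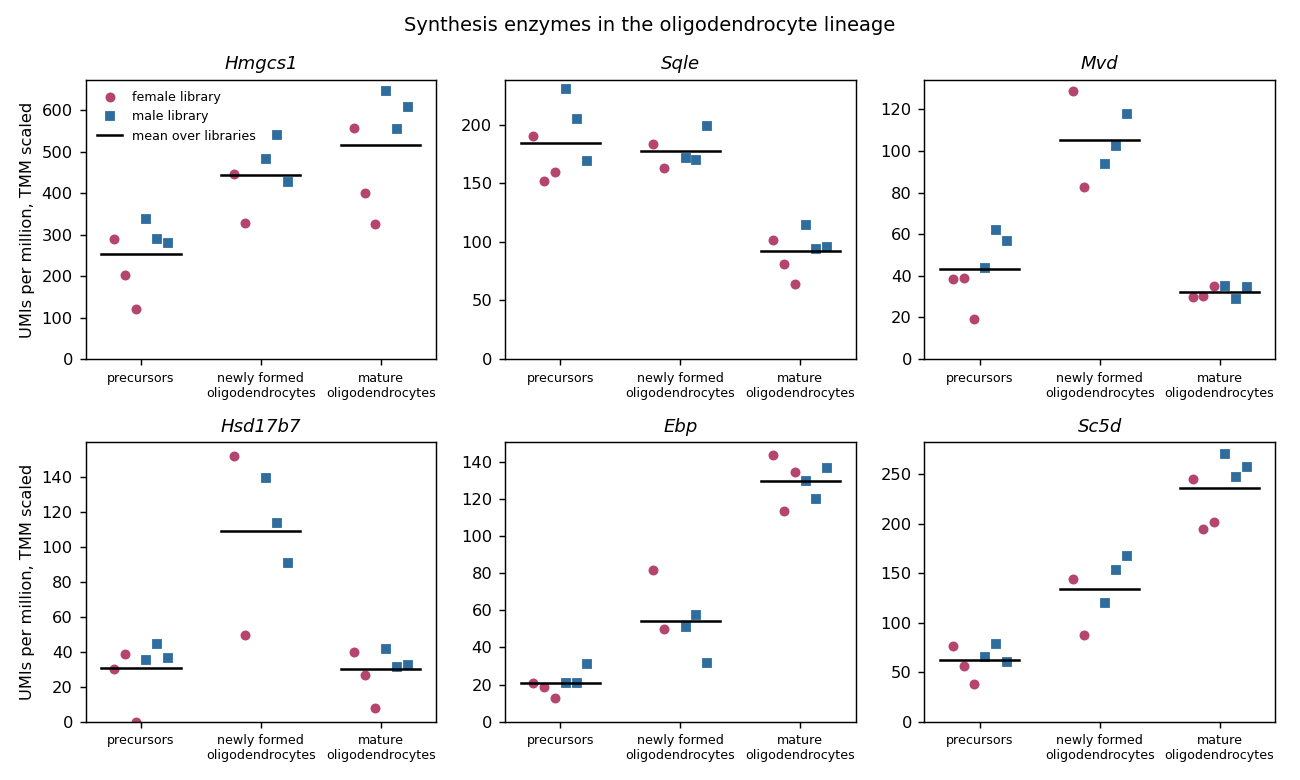
Levels of 6 synthesis enzymes in CPM after TMM scaling (vertical axes) in precursors, newly formed and mature oligodendrocytes; points are libraries (circles female, squares male), bars are means. Mvd and Hsd17b7 are highest in newly formed oligodendrocytes, Ebp and Sc5d in mature ones, and Sqle falls in the last step from a mean of 177 to 91.9.

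Mature oligodendrocytes against precursors, the ends of the lineage, gave 14 genes called higher and 5 lower of 28, where 69.0% of all genes were called (34.8% higher and 34.3% lower). In the number called, both directions together, the genes were close to that share. The split was 11 and 9 with the size factors of DESeq2 and 6 and 16 with plain totals. The genes higher under all 3 scalings were Ebp, Sc5d, Srebf1, Pmvk, Hmgcs1 and Abcg1. Ebp had a median of 20.7 CPM in precursors and ran from 113 to 144 (median 132) in mature oligodendrocytes, a log2 difference of 2.61 ± 0.11 (adjusted p = 7.83e-32). Sc5d, the sterol desaturase next to Ebp in the pathway, was at 38.3 to 78.4 (median 63.2) and then at 194 to 270 (median 246; 1.86 ± 0.09, adjusted p = 2.58e-28). Srebf1, whose product mainly drives fatty acid synthesis, was at 6.38 to 22.5 (median 18.9) and then at 37.6 to 68.0 (median 60.6; 1.63 ± 0.15, adjusted p = 5.38e-16). In none of these 3 genes did the classes overlap.

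The genes lower in mature oligodendrocytes than in precursors under all 3 scalings were Abca1, Sqle, Stard4, Mvd and Acat2. Abca1 was at 8.06 to 13.2 (median 10.0) in mature oligodendrocytes, below all precursor libraries (-1.56 ± 0.16, adjusted p = 8.42e-14). Sqle, the squalene epoxidase, was at 152 to 230 (median 180) in precursors and 64.5 to 114 (median 94.9) in mature oligodendrocytes (-0.99 ± 0.09, adjusted p = 1.28e-16). Stard4, a carrier of sterols in the cytosol, was at 12.8 to 33.5 (median 21.4) and at 2.69 to 15.4 (median 11.3; -0.90 ± 0.19, adjusted p = 1.75e-05). For Stard4 the classes overlapped.

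Newly formed oligodendrocytes were not uniform in these genes. Of the 405 cells, 228 also passed the precursor gate, 123 passed their own gate alone and 54 also passed the mature gate, with median depths of 5124, 6085 and 9494 UMIs. The synthesis enzymes summed to 15.5, 18.0, 17.2, 17.5 and 13.6 UMIs per 10000 in the 5 libraries of the first subset, and to 41.0, 21.2, 27.7, 28.1 and 39.2 in those of the second. In the third, the 2 libraries with at least 10 cells, both male (replicates 1 and 2), held 49.1 and 50.7, so no female library enters its values. The subset that shared the precursor gate thus overlapped the lowest precursor libraries and lay below the others, and the subset that shared the mature gate lay above every library of both neighbouring classes. Of its 54 cells, Scrublet called 1 a doublet. The subsets were set apart after the class values had been seen, and their differences were not tested.

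Hmgcs1 followed that order, at 191, 488 and 1210 CPM on average in the subsets, beside 253 in precursors and 515 in mature oligodendrocytes. Here and below the third average comes from the 2 male libraries alone. So did Fdps, the farnesyl diphosphate synthase, at 129, 256 and 576. Hsd17b7 was at 41.8, 146 and 213, and Mvd at 53.4, 124 and 172. Apoe ran the other way at first, at 1007, 379 and 369, and Insig2 was at 59.2, 52.6 and 20.5, the last from 9 UMIs in the 2 libraries averaged.

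Between astrocytes and neurons the largest differences were those of Apoe, Abca1 and Srebf1. Of 28 genes, 18 were called higher in astrocytes and 3 lower, where 64.4% of all genes were called (29.6% higher and 34.8% lower); with plain totals 14 were higher and 5 lower. Higher calls included 13 of the 18 enzymes tested, of which 10 held under all 3 scalings. Among these were Mvd (2.63), Msmo1 (2.28), a methyl sterol oxidase, Nsdhl (1.66), Idi1 (1.65) and Dhcr7 (1.61), a sterol reductase near the end of the pathway, all as log2 differences. Fdps (0.07), Acat2 (0.18), Cyp51 (0.26) and Pmvk (0.35) were not called.

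Apoe was at 20908 to 33637 CPM (median 25712) in astrocytes and at 26.6 to 199 (median 138) in neurons, a log2 difference of 7.52 ± 0.25 (adjusted p = 4.82e-38). Abca1 was at 47.8 to 122 (median 113) and at 0 to 3.87 (median 2.83), a difference of 5.13 ± 0.19 (adjusted p = 7.99e-36). Srebf1 was at 104 to 197 (median 165) and at 1.77 to 5.96 (median 4.90), a difference of 5.01 ± 0.16 (adjusted p = 4.28e-40). No neuronal library came near an astrocyte one in these 3 genes. The neuronal Apoe level was 0.525% of the astrocyte mean, and the astrocyte markers Slc1a2, Mfge8, Plpp3, Fgfr3 and Cldn10 stood at 1.24%, 0.828%, 0.507%, 0.393% and 0.306% of theirs, which puts Apoe within the range of those markers, and how much of it is RNA from other cells was not tested. Abca1 and Srebf1, at 2.46% and 2.82%, were above those 5 values.

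Abcg1, Cyp46a1 and Insig2 were higher in neurons. Abcg1 was at 0 to 12.4 (median 3.56) in astrocytes and 12.4 to 24.7 (median 21.4) in neurons, a log2 difference of -1.74 ± 0.39 (adjusted p = 7.52e-05), and the highest astrocyte library reached the lowest neuronal one. The transporters Abca1 and Abcg1 thus had opposite directions. Cyp46a1, the hydroxylase that lets neurons release cholesterol, was at 15.4 to 41.9 (median 38.1) in astrocytes and 76.0 to 122 (median 87.8) in neurons (-1.29 ± 0.18, adjusted p = 7.65e-09). Insig2, a retention factor for Scap, was at 15.4 to 79.7 (median 50.7) and 93.9 to 122 (median 106; -0.76 ± 0.15, adjusted p = 5.73e-06). Its relative Insig1 had the opposite direction, at 102 to 170 (median 135.5) in astrocytes and 33.7 to 51.1 (median 41.7) in neurons (1.57).

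**Figure D4:**
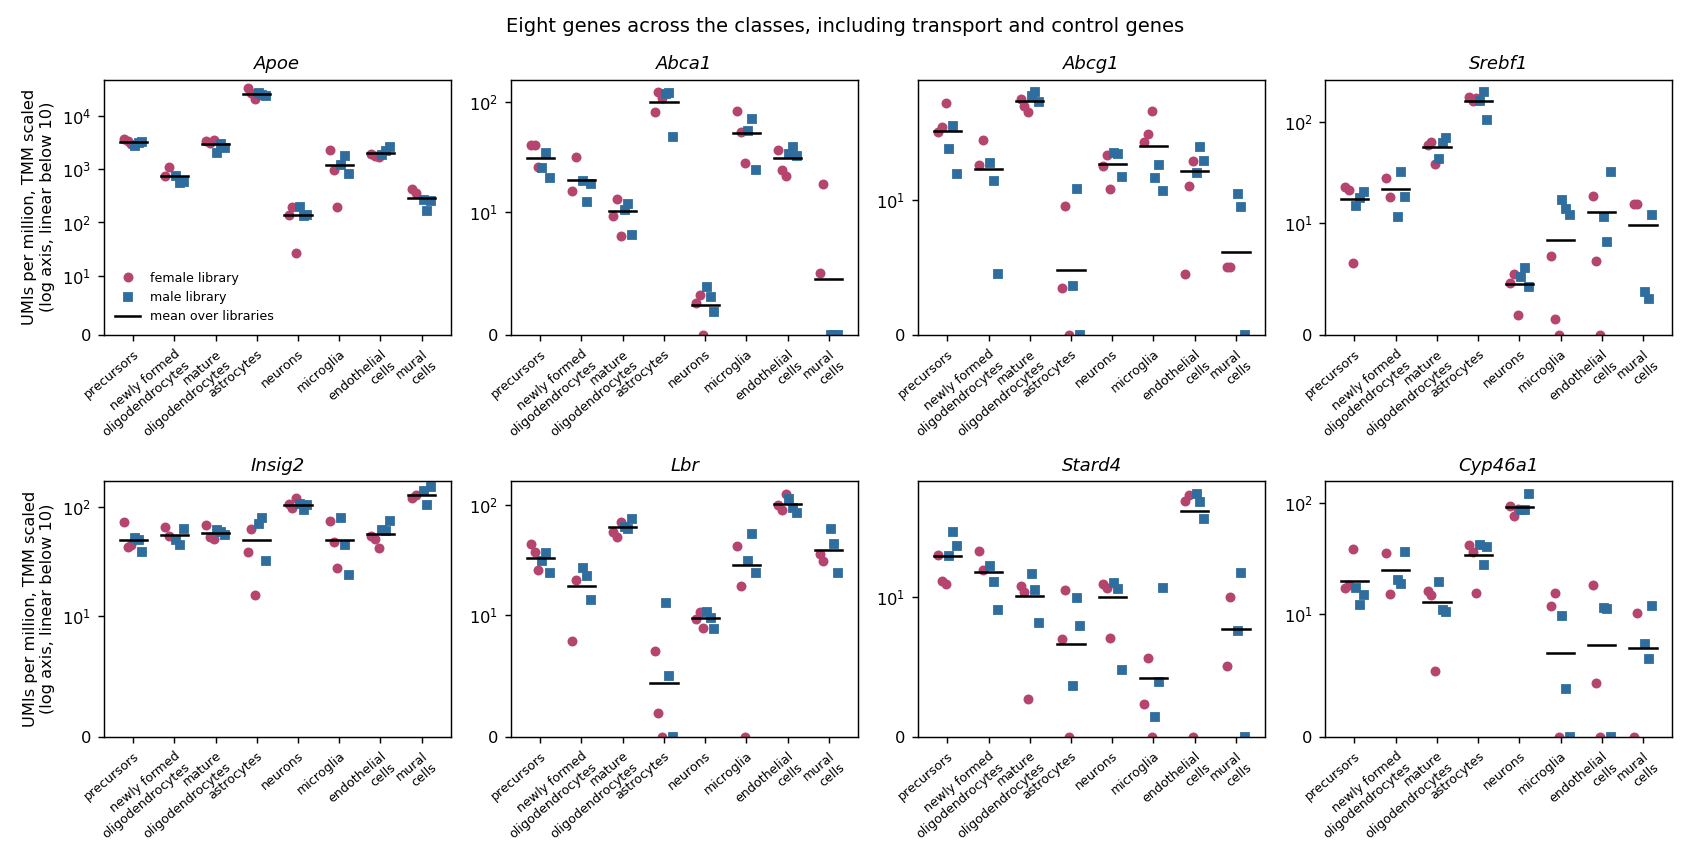
Levels of 8 genes in CPM after TMM scaling (vertical axes, logarithmic and linear below 10) in the 8 classes; points are libraries (circles female, squares male), bars are means. Apoe, Abca1 and Srebf1 have their highest mean in astrocytes, Abcg1 in mature oligodendrocytes, Lbr and Stard4 in endothelial cells, Insig2 in mural cells and Cyp46a1 in neurons.

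Mature oligodendrocytes exceeded neurons in all 18 enzymes tested, with 24 of 28 genes called higher and 2 lower, where 82.5% of all genes were called (40.7% higher and 41.9% lower). With plain totals 19 were higher and 6 lower, and Sqle (-0.18) and Acat2 (-0.30) turned to lower, while Fdft1 (-0.01) lost its call. The largest differences were in Apoe (4.39 ± 0.22, adjusted p = 8.40e-29), Srebf1 (3.46 ± 0.10, adjusted p = 1.87e-42) and Lbr (2.55 ± 0.09, adjusted p = 3.23e-37), with neuronal Lbr at 8.82 to 10.6 (median 9.66) CPM. Cyp46a1 was lower at 5.37 to 19.2 (median 12.7; -2.63 ± 0.10, adjusted p = 1.83e-35). Insig2 was lower at 51.0 to 69.2 (median 57.1; -0.80 ± 0.08, adjusted p = 1.77e-15). Neither gene's libraries overlapped with those of neurons.

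Astrocytes and mature oligodendrocytes had summed levels of 19.5 and 19.0 with plain totals and of 19.0 and 25.2 on the TMM scale, and the difference was not in 1 direction gene by gene. Of 28, 8 were called higher in astrocytes and 8 lower. That was close to the share of all genes called, 59.1% (27.6% higher and 31.5% lower). Both other scalings gave 12 higher and 7 lower. Abca1 (3.27 ± 0.18, adjusted p = 2.30e-26), Apoe (3.13 ± 0.21, adjusted p = 4.79e-22) and Srebf1 (1.55 ± 0.13, adjusted p = 4.59e-17) were higher in astrocytes, without overlap. Among the enzymes Mvd (1.16), Nsdhl (0.89), Msmo1 (0.64) and Sqle (0.31) were higher. Abcg1 (-3.39 ± 0.32, adjusted p = 4.54e-15), Lbr (-3.28 ± 0.32, adjusted p = 1.46e-14) and Ebp (-1.71 ± 0.15, adjusted p = 6.94e-16) were lower. Astrocyte Lbr was at 0 to 12.7 (median 3.44) CPM, from 12 UMIs in all, and astrocyte Ebp at 30.9 to 45.4 (median 37.3), both below every mature oligodendrocyte library. Hmgcs1 (-1.43), Cyp51 (-1.37), Sc5d (-1.26) and Fdps (-1.03) were lower as well. For the lowest-count genes the direction rests on few molecules, and for Fdft1, Cyp51, Srebf1 and Lbr, which overlap Ctsb (774 bases), Akap9, Rai1 and Dnah14 on the opposite strand, no source used here states whether counting was stranded.

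Microglia held little of the pathway. Against astrocytes 23 of 28 genes were called lower and 3 higher, where 61.9% of all genes were called (29.2% higher and 32.6% lower), and all 10 enzymes up to lanosterol were lower. The median log2 difference of the 28 was -1.78, beside -0.09 for all genes. Apoe was at 193 to 2291 (median 1078) CPM in microglia (-4.37 ± 0.22, adjusted p = 1.26e-27), Srebf1 at 0 to 16.8 (median 9.46; -4.10 ± 0.25, adjusted p = 2.18e-23) and Dhcr7 at 0 to 7.03 (median 5.02; -3.85 ± 0.30, adjusted p = 1.59e-18), from 14 UMIs. None of the 3 overlapped with astrocytes.

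Lbr was higher in microglia, at 0 to 54.6 (median 27.3; 2.44 ± 0.42, adjusted p = 5.85e-07), and so was Abcg1, at 11.9 to 55.2 (median 25; 1.89 ± 0.46, adjusted p = 2.98e-04). Ebp, at 0 to 85.7 (median 66.5; 0.85 ± 0.20, adjusted p = 1.86e-04), kept its direction but not its call with the size factors of DESeq2 (0.33, adjusted p = 0.127) and with plain totals (0.20, adjusted p = 0.338). Female replicate 3, with 12 microglia, gave the values of 0 for Lbr and Ebp. Microglial Apoe was 4.63% of the astrocyte mean, beside 0.576% to 2.52% for the 5 astrocyte markers.

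Endothelial cells also held little of the pathway: against astrocytes 22 of 28 were lower and 3 higher, where 50.5% of all genes were called (25.2% higher and 25.3% lower). The median log2 difference was -1.83. Srebf1 was at 0 to 31.8 (median 9.74; -3.94 ± 0.30, adjusted p = 7.62e-19), Apoe at 1687 to 2608 (median 1892; -3.70 ± 0.22, adjusted p = 3.30e-24) and Dhcr7 at 0 to 16.9 (median 6.04; -3.45 ± 0.35, adjusted p = 8.60e-14). Endothelial Apoe was 7.68% of the astrocyte mean, and of the astrocyte markers Mfge8 stood at 6.23% and the other 4 at 0.219% to 1.48%.

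Lbr and Stard4 were higher in endothelial cells. Lbr was at 84.8 to 126 (median 96.6) CPM, above every library of the other 7 classes (3.99 ± 0.36 against astrocytes, adjusted p = 9.23e-16). Stard4 was at 42.4 to 67.4 in 5 libraries and at 0 in female replicate 3 (27 cells), against 0 to 11.5 (median 7.48) in astrocytes (2.95 ± 0.37, adjusted p = 3.16e-10). Abcg1, at 4.53 to 27.5 (median 19.0), had a difference of 1.34 ± 0.58 that barely passed (adjusted p = 0.0471) and lost its call with the size factors of DESeq2 (1.09, adjusted p = 0.112), with plain totals (adjusted p = 0.0538) and without female replicates 1 or 3 or any 1 male replicate (0.0532 to 0.149).

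Between mural and endothelial cells 9 of 28 genes were called, 5 higher and 4 lower in mural cells. That was close to the share of all genes called, 31.6% (15.5% higher and 16.1% lower). Pmvk, the phosphomevalonate kinase, was at 242, 175, 443, 221 and 261 in mural and 41.3 to 95.4 (median 62.4) in endothelial cells (2.18 ± 0.23, adjusted p = 9.82e-13). No library of any other class reached the lowest mural value. Cyp51 was at 25.2, 40.6, 41.6, 66.3 and 47.4 and at 11.2 to 22.7 (median 17.4; 1.53 ± 0.40, adjusted p = 0.00166). Sqle was at 15.1, 38.1, 45.4, 34.7 and 23.7 and at 0 to 22.0 (median 9.83; 1.26 ± 0.42, adjusted p = 0.0152), and it lost its call without female replicate 2 (adjusted p = 0.0564) or male replicate 1 (adjusted p = 0.0653). Insig2 (1.14) and Idi1 (0.94) were higher too.

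Lower in mural cells were Apoe, at 428, 353, 261, 164 and 249 (-2.88 ± 0.25, adjusted p = 1.13e-15), Stard4, at 5.04, 10.2, 7.57, 15.8 and 0 (-2.66 ± 0.40, adjusted p = 7.78e-08), Abca1 and Lbr (-1.26). Abca1 was at 5.04 and 17.8 in the female libraries and listed at 0 in the 3 male ones, beside 21.1 to 38.5 (median 32.8) in endothelial cells (-2.33 ± 0.54, adjusted p = 3.16e-04). It rests on 8 UMIs.

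Within neurons the differences were small. The 1597 excitatory cells (set by Slc17a6) and 13214 inhibitory cells (set by GABA markers) gave 3 genes called higher and 1 lower of 29 tested, where 26.4% of all genes were called (13.4% higher and 13.1% lower). Cyp46a1 was lower in excitatory neurons, at 75.0, 66.8, 59.6, 67.7 and 96.9 against 80.8 to 129 (median 91.8) in inhibitory neurons (-0.39 ± 0.05, adjusted p = 5.51e-06), and lower in 5 of 5 libraries. Fdft1 shares 774 bases with the more abundant Ctsb on the other strand. The isomerase Idi1 (0.20 ± 0.06, adjusted p = 0.0142), the squalene synthase Fdft1 (0.18 ± 0.05, adjusted p = 0.00658) and Acat2 (0.18 ± 0.05, adjusted p = 0.0174) were higher. Idi1 was at 45.6, 56.4, 49.2, 44.4 and 30.8 in excitatory and 24.7 to 48.2 (median 41.2) in inhibitory neurons, with overlap. Fdft1 was at 88.0, 96.4, 84.5, 79.6 and 99.96 against 72.1 to 97.8 (median 77.7), and Acat2 at 64.3, 58.8, 63.7, 51.6 and 55.4 against 47.8 to 60.2 (median 51.8), both with overlap. All 3 upward calls were lost in DESeq2, without the library block and without female replicate 2, each of which left Cyp46a1 alone.

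A second list of 37 genes of sterol and fatty acid handling that are not among the 29 gave the surroundings of the pathway, with 31 passing the class filter. From precursors to newly formed oligodendrocytes, where 40.8% of all genes were called, 7 were called higher, among them Vldlr (1.07 ± 0.13), a lipoprotein receptor, and Cyp27a1 (3.13 ± 0.39), a sterol hydroxylase. The 8 lower genes included the receptor Lrp1 (-1.78 ± 0.14) and the apolipoprotein Clu (-1.35 ± 0.14). In mature against newly formed oligodendrocytes 14 were higher and 10 lower (8 and 15 with plain totals), where 50.4% of all genes were called, led by Apod (4.68 ± 0.22), Scd1 (2.91 ± 0.19) and Stard3 (2.21 ± 0.16) upward and by Lrp1 (-2.95 ± 0.20) downward.

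Astrocytes against neurons gave 21 higher and 2 lower on that list, where 64.4% of all genes were called, and 16 and 5 with plain totals. Lcat, which esterifies cholesterol on lipoproteins, was at 138 CPM on average in astrocytes and 0.373 in neurons (8.15 ± 0.23). Clu (3.93 ± 0.13) and the sterol esterifying enzyme Soat1 (4.08 ± 0.14) were higher as well, and Vldlr was lower (-1.69 ± 0.24). Microglia against astrocytes gave 7 higher, with the lysosomal genes Npc2 (2.63 ± 0.13) and Lipa (3.20 ± 0.20) among them, and 17 lower, where 61.9% of all genes were called. Endothelial cells against astrocytes gave 6 higher, among them the lipoprotein receptor Scarb1 (2.74 ± 0.23) and Lipa (2.31 ± 0.25), and 19 lower, where 50.5% of all genes were called. Mural against endothelial cells gave 4 higher and 6 lower, where 31.6% of all genes were called, with Lipa (-3.52 ± 0.34) and Scarb1 (-2.09 ± 0.24) lower.

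Between the sexes no gene of the 29 was called in any of the 8 classes by edgeR. The numbers tested were 29 in precursors, 28 in newly formed and 29 in mature oligodendrocytes, 23 in astrocytes, 29 in neurons, 15 in microglia, 7 in endothelial and 13 in mural cells. Of all genes, 0.0519% were called in precursors, 0.0638% in newly formed and 0.0543% in mature oligodendrocytes, 0.0556% in astrocytes, 0.0466% in neurons, 0.0819% in microglia, 0.057% in endothelial and 0.0628% in mural cells. Unadjusted p-values under 0.05 numbered 9 in precursors, 3 in mature oligodendrocytes, 0 in endothelial cells and 1 in each of the other 5 classes. These counts stand without the share of all genes under that limit, so they were not compared with a background. DESeq2 called none either. Levels by sex are in CPM of the class without TMM scaling. All female libraries lay below, or above, all male ones for 4 and 0 of 28 genes in newly formed oligodendrocytes (10.3% and 8.17% of all genes), 2 and 2 of 29 in neurons (8.99% and 3.78%), 1 and 1 of 15 in microglia (3.54% and 4.06%), 1 and 0 of 7 in endothelial cells (3.53% and 5.13%), 0 and 1 of 13 in mural cells (9.4% and 9.98%) and 0 and 0 of 23 in astrocytes (4.74% and 3.8%).

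In precursors none of the 29 genes was called between the sexes by edgeR. The counts of genes by sign given next stand without the share of all genes, so they were not compared with a background. Female levels were lower for 19 of 29 genes, with a median log2 difference of -0.23 beside -0.0027 for all genes, and for 9 of the 10 enzymes up to lanosterol (median -0.41). The transport genes leaned the other way, with 4 of 5 higher in female libraries. Acat2 had levels of 97.1, 66.5 and 106 in female replicates 1, 2 and 3, and of 124, 122 and 160 in the male ones, a log2 difference of -0.68 ± 0.19 (adjusted p = 1.00 by edgeR). Fdft1 was at 101, 106 and 62.0 against 124, 159 and 148 (-0.51 ± 0.18, adjusted p = 1.00 by edgeR). In both genes every female library lay below every male one. The same was true of Insig1, Mvk, Lss and Mvd, 6 of 29 genes in all, where 4.09% of all genes tested showed it, and no gene had all female libraries above, which 3.61% of all genes did.

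In precursors and in neurons the deviations of every same-numbered pair of libraries correlated above 0.1. Female replicate 2, however, correlated more with male replicate 1 (0.16 and 0.23) than with male replicate 2 (0.12 and 0.11). The numbers were thus not shown to pair libraries, and the fit with them as a block is an alternative only. With the replicate number as a block, Acat2 was called in precursors (-0.62, adjusted p = 0.0331), beside 0.311% of all genes. Over all alternatives the adjusted p of Acat2 ran from 0.0331 to 1.00.

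In mature oligodendrocytes female libraries held Apoe at 2536, 2563 and 2776 and male ones at 1530, 2191 and 1783 (0.53 ± 0.16, adjusted p = 1.00 by edgeR), without overlap. Cyp51 was at 121, 118 and 86.9 against 150, 141 and 137 (-0.35 ± 0.13, adjusted p = 1.00 by edgeR). All female libraries lay below all male ones for Pmvk, Cyp51, Insig1, Lss and Sc5d, and above for Apoe, where 4.95% and 3.77% of all genes did. In newly formed oligodendrocytes the 2 female libraries held Apoe at 827 and 1192 and the 3 male ones at 838, 592 and 680 (0.56 ± 0.21, adjusted p = 1.00 by edgeR), and Abcg1 at 21.6 and 34.98 against 22.6, 15.6 and 5.36 (0.87 ± 0.44, adjusted p = 1.00 by edgeR). Both overlapped.

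In neurons female libraries held Pmvk at 85.6, 88.2 and 119 and male ones at 76.9, 76.4 and 84.5 (0.24 ± 0.12, adjusted p = 0.787 by edgeR), without overlap, and Scap at 23.6, 24.2 and 33.4 against 28.9, 30.2 and 32.2 (-0.27 ± 0.12, adjusted p = 0.750 by edgeR), with overlap. With the replicate number as a block, Pmvk (0.25, adjusted p = 0.0416) and Insig1 (-0.27, adjusted p = 0.0367) were called in neurons, beside 4.28% of all genes. Female libraries held Insig1 at 44.4, 49.9 and 45.3 and male ones at 60.6, 57.5 and 50.03, without overlap.

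In mural cells the 2 female libraries held Apoe at 391 and 326 and the 3 male ones at 226, 144 and 263 (0.83 ± 0.27, adjusted p = 0.838 by edgeR), without overlap. Pmvk in mural cells was at 221 and 162 against 383, 194 and 276, with overlap (-0.59 ± 0.31, adjusted p = 0.977 by edgeR). In astrocytes Cyp51 was at 85.7, 84.4 and 41.6 against 59.0, 47.1 and 44.2 (0.64 ± 0.29, adjusted p = 1.00 by edgeR), and Idi1 at 178, 135 and 125 against 104, 126 and 115 (0.41 ± 0.25, adjusted p = 1.00 by edgeR). In microglia Abcg1 was at 18.6, 23.5 and 72.7 against 9.97, 10.7 and 9.51 (1.09 ± 0.44, adjusted p = 0.999 by edgeR), without overlap but with the highest value from a library of 12 microglia. Srebf2 was there at 11.5, 8.46 and 36.3 against 22.7, 16.0 and 9.51 (-0.91 ± 0.46, adjusted p = 0.999 by edgeR), with overlap. There the sign of the fitted difference goes against the group means, 18.8 in female and 16.1 in male libraries, and the 36.3 comes from the library of 12 microglia. In endothelial cells Apoe was at 1862, 1698 and 1953 against 1776, 2110 and 2334 (-0.23 ± 0.20, adjusted p = 1.00 by edgeR), and Pmvk at 66.2, 58.1 and 73.2 against 42.7, 39.6 and 85.4 (0.33 ± 0.37, adjusted p = 1.00 by edgeR), both with overlap.

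**Figure D5:**
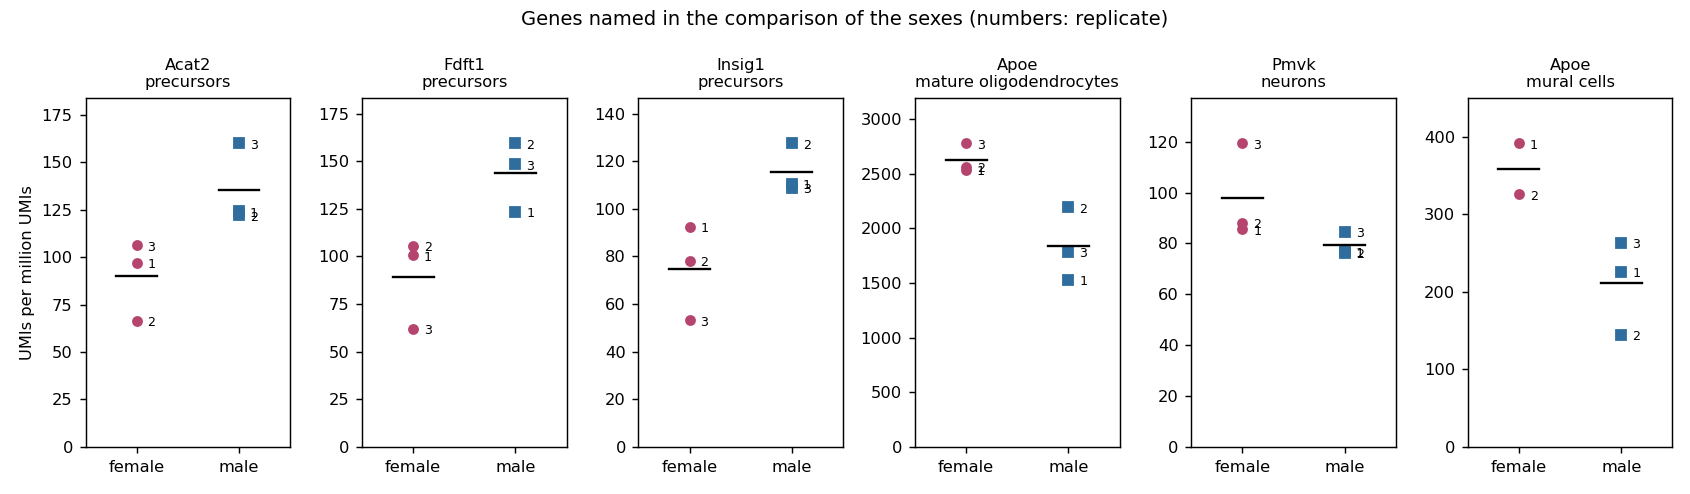
Levels in CPM of the class without TMM scaling (vertical axes, from 0) of genes named in the comparison of the sexes; points are libraries with their replicate number, bars are means. Acat2, Fdft1 and Insig1 lie lower in all 3 female precursor libraries, and Apoe lies higher in the female libraries of mature oligodendrocytes and mural cells.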

How the data were processed

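Raw UMI counts per gene and cell were deposited as whole numbers in a sparse table for the whole series. Per the submitters' processing notes the authors used Cell Ranger 2.0.0 and the mm10 build. No source used here states the chemistry, the gene annotation, the strand of counting or the rule that called cells. The members and lists were chosen with earlier results of these data known, and gate thresholds were set after marker scores, not member values, had been seen.

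Cells with at least 500 genes and at most 20% mitochondrial UMIs were placed in a class by marker UMIs per 10000 and number of markers detected; the 959 cells that passed several gates were left out, while cells of the newly formed gate that also passed the precursor or the mature gate stayed with the newly formed class. Counts were summed per library and class (at least 10 cells). Scrublet in scanpy 1.11.5 called 1028 doublets (3.34%), which were kept and left out in an alternative. Sums were tested with edgeR 4.0.16 (R 4.3.3): TMM scaling, filterByExpr, quasi-likelihood test and Benjamini-Hochberg adjustment over all genes tested, with library as a block between classes and no block between sexes. The tests were also run on simulated counts in which few genes changed, up and down alike. That setting cannot check how calls between classes depend on the scaling. DESeq2 1.42.0, other scalings, no filter, stricter gates, sums of at least 20 cells, a change of block and leaving out each library were the alternatives, and TMM scaling of the summed enzymes was added after seeing the data.

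Named in full are up to 3 called genes per direction and comparison with the largest log2 difference, and per sex comparison the 2 with the smallest p. From the second list up to 3 called genes per direction with the smallest p could be named. Sqle, Sc5d, Insig1 and other genes given beside these were named after their values were seen.

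The replicate numbers come from the labels, which do not say what a number shares. In precursors the deviations of same-numbered female and male libraries correlated at 0.22, 0.12 and 0.20, and in neurons at 0.24, 0.11 and 0.21. Female replicate 2 with male replicate 1 reached 0.16 and 0.23, so the number was not shown to pair libraries there. In the other classes with 3 pairs at least 1 pair lay at or under 0.1. Replicate 3 was the smallest library in both sexes.

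Median UMIs per kept cell were 2684 to 6757 by library and, by class, from 2844 in astrocytes to 7384 in neurons. Confidence intervals and zero counts cover counting error only.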

Additional observations from a re-analysis of the deposited data

Results flagged for a closer look

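Of 87 groups of libraries examined, 5 had a library far from the rest, and chance alone gives about 1 in 20. The summed synthesis enzymes in mural cells reached 9.92 UMIs per 10000 in male replicate 1, beside 6.27 to 7.32 in the others. In endothelial cells Stard4 was at 0 CPM in female replicate 3 (27 cells), beside 42.4 to 67.4. In microglia Ebp was at 0 in female replicate 3 (12 cells), beside 59.5 to 85.7. In mural cells Abca1 was at 17.8 in female replicate 2, beside 0 to 5.04. In precursors Hsd17b7 was at 0 in female replicate 3 (50 cells), beside 30.1 to 44.2.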

How the results depend on the processing

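Counts of genes called stayed within 1.5 times the reported count in 9 of the 10 class comparisons under every alternative run. Excitatory against inhibitory neurons fell from 4 genes to 1 with DESeq2, without the library block and without female replicate 2, and leaving out single libraries gave 1 to 5. Between the sexes the replicate block raised the count from 0 to 1 in precursors, to 2 in neurons and to 1 in mural cells, where Apoe was called (0.97, adjusted p = 0.0355) beside 18 of 4778 genes. Mural cells have 2 such pairs, and in no class were the numbers shown to pair libraries. Leaving out single libraries gave 0 in all 8 sex comparisons. Of the 73 results for genes named by the rule, 8 lost their call under at least 1 alternative, 3 gained one with the block and 0 reversed; the cause was not tested. Those 8 are Abcg1 in endothelial cells against astrocytes (9 alternatives, 5 of them single libraries left out), Idi1, Acat2 and Fdft1 between the neuron classes (among others without female replicate 2), Ebp in microglia against astrocytes (other scalings and DESeq2), Sqle in mural against endothelial cells (without female replicate 2 or male replicate 1), and Abcg1 and Abca1 in newly formed oligodendrocytes against precursors (without male replicate 2). Outside those 73, plain totals turned the sign of called differences of mature oligodendrocytes: against newly formed ones for Hmgcs1, Cyp51, Dhcr7 and Scap, against precursors for Dhcr7, Fdps, Mvk, Fdft1 and Scap, and against neurons for Sqle, Acat2 and Fdft1. With TMM scaling, chosen after seeing the data, the summed enzymes moved to 17.5 UMIs per 10000 in precursors, 25.2 in mature oligodendrocytes, 9.04 in neurons and 3.86 in microglia. Counts do not show that the same genes were called, and plain totals turned the split of the lineage comparisons toward lower, as given with them. Female replicate 3, with 1278429 UMIs, limits what can be seen in microglia, endothelial cells and astrocytes.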
